A study of Mus musculus with 4 samples.

Results

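The genes described here are 6 ligands of the bone morphogenetic protein (BMP) family (*Bmp2*, *Bmp4*, *Bmp5*, *Bmp6*, *Gdf5* and *Gdf10*) and 4 secreted antagonists or modulators of BMPs (*Nog*, *Grem1*, *Bmper* and *Chrdl1*). They were chosen by name, with earlier results of these data known, and make up 10 of the 32285 genes in the count tables. All 10 had at least 1 unique molecular identifier (UMI) in the kept cells of every library, and their UMIs over the mesenchymal, endothelial and mural cells ranged from 264 for *Gdf5* to 25994 for *Bmper*. The question addressed was which cells of the fracture callus transcribe the ligands and which transcribe the antagonists, and how these levels stood with and without serum-induced arthritis.

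The data were 4 single-cell RNA-seq libraries of cells scraped and dissociated from the tibial fracture callus of male, wild-type C57BL/6J mice that were 3 months old. All 4 groups carried a fracture, and none carried a transgene or a deletion. The control_4d and control_7d libraries came from vehicle-treated mice at 4 and 7 days post fracture (dpf). The RA_4d and RA_7d libraries came from mice injected with K/BxN serum, which carries arthritogenic antibodies and serves as a model of rheumatoid arthritis (RA), at the same times. Each group was 1 library made from pooled calluses, so there was no replicate and no test between groups. Library, sequencing batch and group therefore cannot be told apart. The intervals below are exact 95% intervals that cover counting error only.

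Between 4110 and 8223 cells per library passed the cell filter, 25479 in all, with a median of 16093.5 to 17631.5 UMIs per cell and 83405494 to 156567619 UMIs per library. Any 2 libraries shared 10 to 31 cell barcodes of the 34038 deposited. Clusters built without the BMP genes were named from marker genes and gave 8896 mesenchymal, 3253 endothelial and 830 mural cells. In every library the summed level of the 6 general mesenchymal markers was 28010 to 38810 counts per 1000000 counts (CPM) in the mesenchymal cells. It was 99.7 to 497 CPM in the endothelial cells and 2355 to 5852 CPM in the mural cells. These markers also served to assign the lineages, so the check is not independent. The 3 lineages were divided into 14 classes, named "-like" because the names rest on markers alone, and 1 mesenchymal class stayed unnamed. The chondrogenic-like class held 332 cells in control_7d and 179 in RA_7d, but 10 and 11 cells at 4 dpf. No osteogenic class was separated. The chondrogenic-like class also carried the osteoblast transcription factor *Sp7*, at 61.4 CPM over the summed libraries, against 6.73 CPM in the next class. Cartilage and bone-forming cells within it were not told apart.

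BMPs are secreted dimers that bind pairs of type I and type II serine/threonine kinase receptors and drive phosphorylation of receptor SMADs, which enter the nucleus with SMAD4 and induce genes such as the *Id* family. Antagonists act outside the cell by holding the ligand away from its receptors, so the signal a cell receives depends on the ligands and antagonists its neighbours secrete. In fracture repair the pathway is known for its roles in the start of healing, in cartilage formation and in bone formation. Levels are given as CPM of the UMIs summed over the cells of a lineage or class. The assay counts UMIs of transcripts captured at the 3′ end. The members range in gene length from 1.7 kb for *Nog* to 262.1 kb for *Bmper*. Whether levels of different genes depend on gene length was not tested.

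The lineage with the highest level differed between members. Over the summed libraries, *Bmp2*, *Bmp5* and *Bmp6* had their highest level in mural cells and *Bmp4* in endothelial cells. The remaining 6 members were highest in mesenchymal cells, although for *Nog* the mesenchymal level of 1.11 CPM and the mural level of 1.10 CPM did not differ beyond their intervals. Blood cells, which made up 10802 of the kept cells, were taken as a measure of stray RNA, although blood cells can also transcribe a member. There 9 of the 10 members were below 1 CPM, and *Bmp2* reached 5.46 CPM.

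**Figure D1:**
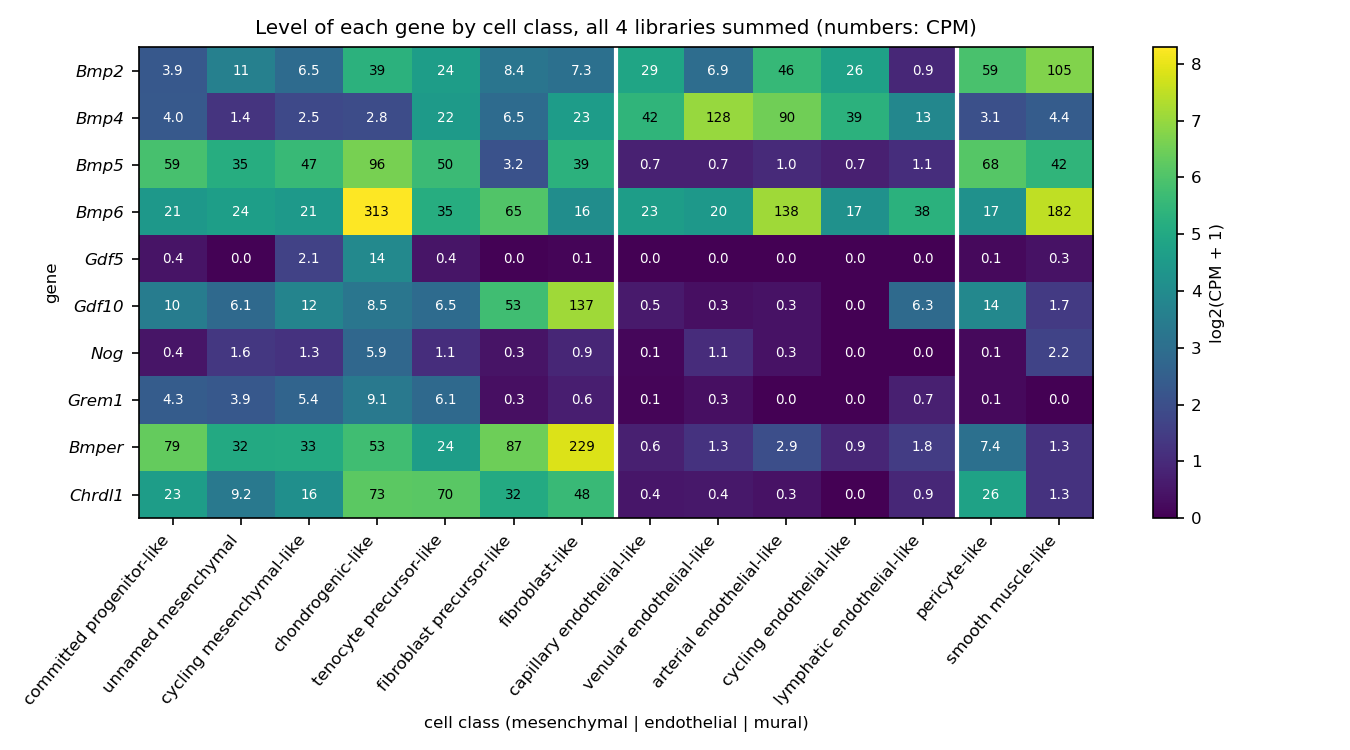
Level of the 10 BMP genes (rows) in the 14 classes of the 3 lineages (columns), summed over the 4 libraries, printed in CPM on a colour scale of log2(CPM + 1). *Bmper* and *Gdf10* peaked in fibroblast-like cells, *Bmp4* in venular endothelial-like cells, *Bmp2* in smooth muscle-like cells, and the 6 other genes in chondrogenic-like cells.

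*Bmp2*, a ligand needed for the start of fracture healing, lies at chr2:133552159-133562885 (mm10, plus strand). In mural cells it stood at 66.9 (control_4d), 91.1 (control_7d), 72.7 (RA_4d) and 80.7 CPM (RA_7d), and all 4 values were above the 17.5 to 29.3 CPM of endothelial cells and the 7.65 to 13.2 CPM of mesenchymal cells. Smooth muscle-like cells led the classes with 105 CPM (97.1 to 114) and ranked first in each of the 4 libraries among classes of at least 20 cells. Pericyte-like cells followed at 58.7 CPM, and their interval overlapped that of arterial endothelial-like cells at 45.7 CPM. Among mesenchymal cells, *Bmp2* was concentrated in chondrogenic-like cells, with 38.9 CPM, and tenocyte precursor-like cells, with 23.6 CPM. The 2 classes differed beyond their intervals, and committed progenitor-like cells had the lowest mesenchymal level, 3.89 CPM.

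*Bmp4* (chr14:46383520-46390669, minus strand), a ligand close in sequence to *Bmp2*, had the opposite vascular pattern. Its endothelial level was 70.0 (control_4d), 53.2 (control_7d), 62.6 (RA_4d) and 75.1 CPM (RA_7d), whereas its mural level was between 2.2 and 5.1 CPM. Venular endothelial-like cells led with 128 CPM (122 to 133), above arterial endothelial-like cells at 89.5 CPM over the summed libraries. By library the pair was close or turned in 2 of 4, with 104 CPM in venular and 108 CPM in arterial cells of control_7d and 103 and 98.1 CPM in RA_4d. Capillary and cycling endothelial-like cells, at 41.9 and 38.9 CPM, did not differ beyond their intervals. The only mesenchymal classes above 10 CPM were fibroblast-like cells at 23.1 CPM and tenocyte precursor-like cells at 21.8 CPM, whose intervals overlapped. Over the mesenchymal classes the order of the pair differed as well, since chondrogenic-like cells had 38.9 CPM of *Bmp2* and 2.80 CPM of *Bmp4*.

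*Bmp5* (chr9:75775364-75900310, plus strand) and *Bmp6* (chr13:38345107-38500302, plus strand) belong to the same branch of the family and share receptors. *Bmp5* was measured in mesenchymal and mural cells and was close to absent from endothelium. Its mesenchymal level was 36.6 (control_4d), 68.1 (control_7d), 28.3 (RA_4d) and 24.6 CPM (RA_7d), and its mural level 54.4, 69.9, 39.7 and 51.5 CPM in the same order, whereas every endothelial class was at 1.13 CPM or less. Over the summed libraries chondrogenic-like cells had 96.2 CPM, pericyte-like cells 68.2 CPM and committed progenitor-like cells 58.5 CPM, but the order varied by library. Among classes of at least 20 cells, chondrogenic-like cells ranked first in both 7 dpf libraries, the unnamed class in control_4d with 72.7 CPM and pericyte-like cells in RA_4d with 55.3 CPM. In control_7d committed progenitor-like cells, at 87.2 CPM, and pericyte-like cells, at 82.9 CPM from 178 UMIs, were close. Fibroblast precursor-like cells stood apart from the other mesenchymal classes with 3.22 CPM, against 35.3 CPM or more in each of the rest.

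*Bmp6*, best known as the ligand that controls hepcidin in iron balance and also expressed in cartilage, was found in all 3 lineages. Its level ranged from 30.0 to 63.1 CPM in mesenchymal, from 24.95 to 34.5 CPM in endothelial and from 85.1 to 104 CPM in mural cells across the 4 libraries. Within each lineage it was uneven. Chondrogenic-like cells had 313 CPM (304 to 323), smooth muscle-like cells 182 CPM and arterial endothelial-like cells 138 CPM, whereas pericyte-like cells had 17.2 CPM and fibroblast-like cells 15.8 CPM over the summed libraries. The lead of chondrogenic-like cells came from the 7 dpf libraries, and among classes of at least 20 cells smooth muscle-like cells ranked first in control_4d and arterial endothelial-like cells in RA_4d. A *Bmp6* UMI was found in 40.6% of chondrogenic-like cells, and in 24.6% (21.0 to 28.5) after each cell was thinned to 4000 UMIs. The share was higher in smooth muscle-like cells, at 62.9%, and at 38.5% (33.85 to 43.3) after thinning. In arterial endothelial-like cells it was 44.9%, and 25.5% (19.6 to 32.2) after thinning. Chondrogenic-like cells thus led in CPM but not in the share of cells. The thinned share in blood cells was 0.231%. Median depth before thinning was 27616.5 UMIs in chondrogenic-like and 12628.5 in blood cells.

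*Gdf5* (chr2:155941023-155945367, minus strand), a ligand that marks joint-forming and early cartilage cells, was the scarcest ligand. Of its UMIs in the 3 lineages, 77.3% came from chondrogenic-like cells, where the level was 13.9 CPM, and 9.09% from cycling mesenchymal-like cells at 2.10 CPM. Endothelial cells had 0 *Gdf5* UMIs in all 4 libraries, which allows a level of up to 0.0537 CPM over their sum. *Gdf10* (chr14:33923587-33937983, plus strand), also called BMP3b, is a divergent family member that does not act as a typical osteogenic BMP. It was a gene of the fibroblast classes, with 137 CPM (135 to 140) and 74.1% of its UMIs in fibroblast-like cells and 53.3 CPM and 16.8% in fibroblast precursor-like cells. These classes ranked first and second in all 4 libraries, and every other class had 13.6 CPM or less over the summed libraries. Chondrogenic-like cells, the main source of *Gdf5*, had 8.46 CPM of *Gdf10*.

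The antagonists fell into a low and a high pair. *Nog* (chr11:89300638-89302332, minus strand) and *Grem1* (chr2:113746164-113758646, minus strand) encode noggin and gremlin, which bind BMPs directly and block their receptor contacts. The mesenchymal level of *Nog* was 0.809, 1.53, 0.380 and 1.03 CPM in control_4d, control_7d, RA_4d and RA_7d, and that of *Grem1* was 1.72, 3.81, 3.80 and 2.50 CPM. Both were low in every library, and over the summed libraries both had their highest level in chondrogenic-like cells, with 5.87 CPM for *Nog* and 9.14 CPM for *Grem1*. *Nog* in the next class, smooth muscle-like cells, was 2.19 CPM, and *Grem1* in tenocyte precursor-like cells was 6.07 CPM. In these sums the leading class differed from the next beyond counting error for both genes. By library, chondrogenic-like cells ranked first for *Nog* in both 7 dpf libraries, but for *Grem1* in RA_7d alone, with 13.2 CPM, since in control_7d committed progenitor-like cells had 6.09 CPM and chondrogenic-like cells 5.99 CPM. At 4 dpf, where classes under 20 cells were not ranked, other classes came first for both genes.

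*Bmper* (chr9:23223076-23485200, plus strand) encodes a secreted protein of the crossveinless type that binds BMPs and can restrain or favour their signal. It was the most abundant member in mesenchymal cells, with 143 (control_4d), 70.6 (control_7d), 185 (RA_4d) and 117 CPM (RA_7d). Fibroblast-like cells had 229 CPM (225 to 233) and 61.8% of its UMIs, and they ranked first in all 4 libraries. Fibroblast precursor-like cells at 87.1 CPM and committed progenitor-like cells at 79.2 CPM followed, apart beyond their intervals. *Chrdl1* (chrX:143285674-143394262, minus strand), a chordin-like antagonist, was spread more evenly, at 45.6, 27.9, 60.2 and 40.1 CPM in mesenchymal cells of the 4 libraries. Chondrogenic-like cells at 73.1 CPM and tenocyte precursor-like cells at 70.4 CPM overlapped and both stood above fibroblast-like cells at 48.3 CPM over the summed libraries. Among classes of at least 20 cells, tenocyte precursor-like cells ranked first at 4 dpf and chondrogenic-like cells at 7 dpf in both conditions. Mural cells carried 5.66 to 20.4 CPM of *Chrdl1*, and pericyte-like cells had 26.2 CPM.

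Genes whose profiles were most like those of the members were ranked over 54 class-by-library profiles of log2(CPM + 1), a description in which profiles of a library share its preparation and depth. *Bmp5* was most like *Ddit4l* and *Slc7a2* (Pearson r = 0.96 and 0.92) and *Bmp4* most like *Gch1*, *Ablim1* and *Capn5* (r = 0.90, 0.89 and 0.88). For *Gdf5* these were *Kcna6*, *Scrg1* and *Panx3* (r = 0.93, 0.93 and 0.92). *Gdf5* had 262 UMIs over the profiles, most of them in chondrogenic-like cells, so these values rest on few profiles. The nearest genes to *Gdf10* were *Dpep1*, *Scara5* and *Gabra3* (r = 0.88, 0.88 and 0.86), and to *Bmper* *Chl1*, *Gpr39* and *Sfrp2* (r = 0.95, 0.94 and 0.94). *Chrdl1* was nearest to *Glt8d2*, *Srpx* and *Ctsk* (r = 0.94, 0.93 and 0.93) and *Grem1* to *Arxes1*, *Kctd14* and *Car12* (r = 0.89, 0.88 and 0.86). The likeness was weaker for *Bmp2* with *Cabp1*, *Tbx3* and *Slc4a8* (r = 0.79, 0.77 and 0.76), *Bmp6* with *Msi2*, *Mylk4* and *Cep85l* (r = 0.78, 0.71 and 0.67) and *Nog* with *Gm13919*, *Stk26* and *Adgrg6* (r = 0.78, 0.68 and 0.68). Among the members themselves, *Bmper* and *Chrdl1* (r = 0.80), *Gdf10* and *Bmper* (r = 0.78) and *Gdf10* and *Chrdl1* (r = 0.77) had the highest correlations, and *Bmp4* and *Bmp5* the lowest (r = -0.72).

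Arthritis was compared with control within each time point. At 4 dpf the widest mesenchymal ratio among the members compared was that of *Grem1*, at 1.72 CPM in control and 3.80 CPM in RA (ratio 2.21, 1.55 to 3.18), a log2 ratio of 0.82 once 1 CPM was added to each level. Of the 8 members with at least 50 UMIs over both libraries, 0 passed a log2 ratio of 1 in either direction (with 1 CPM added to each level), beside 1.77% of 14213 genes. At 7 dpf, 4 of 10 members were past 2-fold, beside 2.61% of 17248 genes, with *Gdf10* and *Bmp4* higher and *Bmp5* and *Gdf5* lower in RA. The shares over all genes are given for scale, and the difference was not tested. The members were chosen with earlier results of these data known, and the other genes were not matched to them in level. The median log2 ratio of the members was 0.09 at 4 dpf and -0.38 at 7 dpf, and that of all genes 0.04 and -0.03. In mesenchymal cells control_7d was the highest or the lowest of the 4 libraries for all 10 members, against 53.7% of 17854 genes. It was the highest for 6 members and the lowest for 4.

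**Figure D2:**
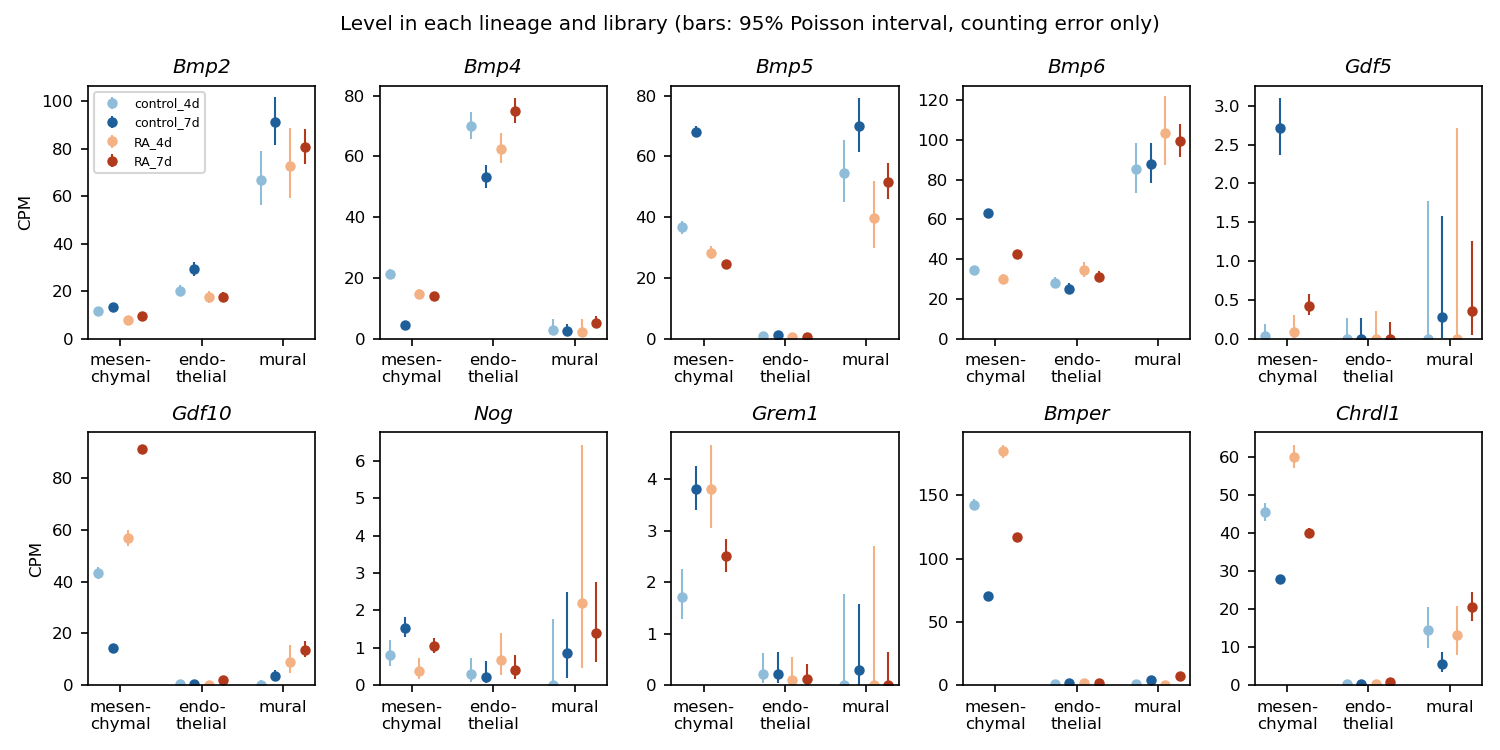
Level of each of the 10 genes in mesenchymal, endothelial and mural cells of each library, in CPM, with bars for the exact 95% Poisson interval of the count. In mesenchymal cells *Gdf10* stands at 14.5 CPM in control_7d and 91.2 CPM in RA_7d, and *Bmp5* at 68.1 and 24.6 CPM.

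*Gdf10* had the largest log2 ratio in size of the 10 members in mesenchymal cells at 7 dpf, with 1 CPM added to each level. Without that addition the *Gdf5* ratio of 0.155 was slightly further from 1 on a log scale. The mesenchymal level of *Gdf10* was 43.4 (control_4d), 14.5 (control_7d), 57.0 (RA_4d) and 91.2 CPM (RA_7d), so both RA libraries were above both control libraries. RA stood at 1.31 times control (1.22 to 1.42) at 4 dpf and at 6.31 times control (5.93 to 6.71) at 7 dpf, a log2 ratio of 2.58. At 7 dpf the gap was present in both clusters of fibroblast-like cells, with 19.3 against 182 CPM in the cluster led by *Mmp3* and 85.8 against 267 CPM in the cluster led by *Myoc*. Fibroblast precursor-like cells had 19.8 CPM in control_7d and 74.9 CPM in RA_7d, and committed progenitor-like cells 1.47 and 19.96 CPM. The interval of the ratio lay above 1 in 4 of 7 mesenchymal classes and below 1 in 1, the chondrogenic-like cells, where the ratio was 0.631 (0.402 to 0.965). In tenocyte precursor-like cells it was 0.798 (0.564 to 1.13). At 4 dpf the interval lay above 1 in 3 of 4 mesenchymal classes compared and below 1 in 1. Fibroblast-like cells then had 119 CPM in control_4d and 135 CPM in RA_4d.

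The share of fibroblast-like cells with a *Gdf10* UMI, after thinning to 4000 UMIs per cell, was 10.2% (8.29 to 12.3) in control_7d and 35.3% (32.9 to 37.8) in RA_7d. At 4 dpf it was 24.8% in control and 25.2% in RA. Without thinning the shares were 24.6% and 62.3% at 7 dpf and 55.3% and 59.9% at 4 dpf, at median depths of 21749 to 29173 UMIs. In blood cells, where *Gdf10* reads can be taken as background, the unthinned shares were 0.0349% in control_7d and 1.58% in RA_7d at median depths of 10799 and 11001 UMIs. The level in blood cells was 0.0280 CPM in control_7d and 1.74 CPM in RA_7d, and the part of stray RNA in the mesenchymal ratio was not tested.

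*Bmp5* was lower in RA in most mesenchymal classes but not in all. At 7 dpf the lineage had 68.1 CPM in control and 24.6 CPM in RA, a ratio of 0.361 (0.344 to 0.379) and a log2 ratio of -1.43. At 4 dpf the ratio was 0.773 (0.701 to 0.852), and the 2 RA libraries were the 2 lowest of the 4. The interval lay below 1 at 7 dpf in 5 of 7 classes. Fibroblast-like cells had 83.5 CPM in control_7d and 22.1 CPM in RA_7d, committed progenitor-like cells 87.2 and 32.1 CPM, and the unnamed class 49.1 and 8.31 CPM. Chondrogenic-like cells, with a ratio of 0.907 (0.808 to 1.02), and tenocyte precursor-like cells, with 0.972 (0.848 to 1.12), had intervals that crossed 1, and these were the mesenchymal classes with the highest *Bmp5* level in RA_7d, 91.6 and 47.8 CPM. In the fibroblast-like class *Bmp5* was already lower at 4 dpf, with 25.3 CPM in control and 9.23 CPM in RA.

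*Bmp4* and *Gdf5* were the other members past 2-fold. *Bmp4* had 4.36 CPM in control_7d and 13.9 CPM in RA_7d in mesenchymal cells, a ratio of 3.18 (2.82 to 3.58), whereas at 4 dpf control had 21.2 CPM and RA 14.8 CPM, a ratio of 0.700 (0.613 to 0.799). The *Myoc*-led fibroblast-like cluster had 17.3 CPM in control and 71.6 CPM in RA at 7 dpf, and the *Mmp3*-led cluster 4.68 and 9.70 CPM. Tenocyte precursor-like cells had 8.88 and 21.9 CPM, and committed progenitor-like cells 2.07 and 6.11 CPM, so that 3 of 4 classes compared were past 2-fold. *Gdf5* had 216 UMIs in control_7d and 42 in RA_7d, or 2.72 and 0.422 CPM, with a ratio of 0.155 (0.109 to 0.217). Chondrogenic-like cells made up 11.3% of the mesenchymal UMIs in control_7d and 4.95% in RA_7d, and within them *Gdf5* was 19.4 CPM in control and 5.48 CPM in RA.

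The makeup of the mesenchymal compartment differed between the 7 dpf libraries, so lineage levels were recomputed with the class levels of one library and the class shares of the other. With control levels and the RA makeup, *Gdf10* would stand at 18.1 CPM, against the 14.5 and 91.2 CPM measured, and *Bmp5* at 61.5 CPM, against 68.1 and 24.6 CPM. *Bmp4* would stand at 5.15 CPM. For *Bmp6* the same exchange took the control level from 63.1 to 44.3 CPM, where RA_7d had 42.7 CPM, and for *Gdf5* from 2.72 to 1.31 CPM, where RA_7d had 0.422 CPM. The reverse exchange, with RA levels and the control makeup, gave 53.2 CPM for *Bmp6* and 0.849 CPM for *Gdf5*, and 69.8 CPM for *Gdf10*, 30.9 CPM for *Bmp5* and 11.6 CPM for *Bmp4*.

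The genomic sequence just before the start of 3 of the genes past 2-fold is shown here because in RA *Gdf10* and *Bmp4* were higher and *Bmp5* lower in the same summed lineage. Each run is the 250 bases upstream of the RefSeq start (GRCm38.p6), read 5′ to 3′ on the strand of the gene, for *Gdf10* at chr14:33923337-33923586 (plus), *Bmp5* at chr9:75775115-75775364 (plus) and *Bmp4* at chr14:46390670-46390919 (minus). Capitals mark every match to the GC box GGGCGG, the GC-rich palindrome GGCGCC, the TATA box TATAAA or the SMAD box CAGAC, on either strand.
Gdf10: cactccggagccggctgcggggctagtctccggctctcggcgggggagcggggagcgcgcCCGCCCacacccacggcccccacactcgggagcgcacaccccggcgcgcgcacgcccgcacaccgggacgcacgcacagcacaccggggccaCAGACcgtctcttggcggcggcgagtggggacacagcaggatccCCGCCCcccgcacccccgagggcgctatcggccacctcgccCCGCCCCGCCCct
Bmp5: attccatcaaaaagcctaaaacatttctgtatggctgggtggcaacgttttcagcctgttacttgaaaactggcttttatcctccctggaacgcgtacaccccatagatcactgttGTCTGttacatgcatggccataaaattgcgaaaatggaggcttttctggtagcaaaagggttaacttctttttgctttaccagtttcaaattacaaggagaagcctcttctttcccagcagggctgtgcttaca
Bmp4: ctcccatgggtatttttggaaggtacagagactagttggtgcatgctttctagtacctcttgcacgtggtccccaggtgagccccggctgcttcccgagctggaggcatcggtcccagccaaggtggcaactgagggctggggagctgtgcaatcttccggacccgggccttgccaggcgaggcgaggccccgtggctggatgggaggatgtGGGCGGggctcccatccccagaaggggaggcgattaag
The *Gdf10* run had 4 GC boxes, the last pair overlapping, and 1 SMAD box, *Bmp5* had 1 SMAD box and *Bmp4* had 1 GC box. Of 32851 promoters in the RefSeq table, 32.7% held the GC box, 9.6% the palindrome, 12.4% the TATA box and 42.2% the SMAD box in the same window. The GC content was 78.8% for *Gdf10*, 42.8% for *Bmp5* and 63.2% for *Bmp4*, against a median of 52.4% over all promoters. The table held 6 of the 10 members.

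**Figure D3:**
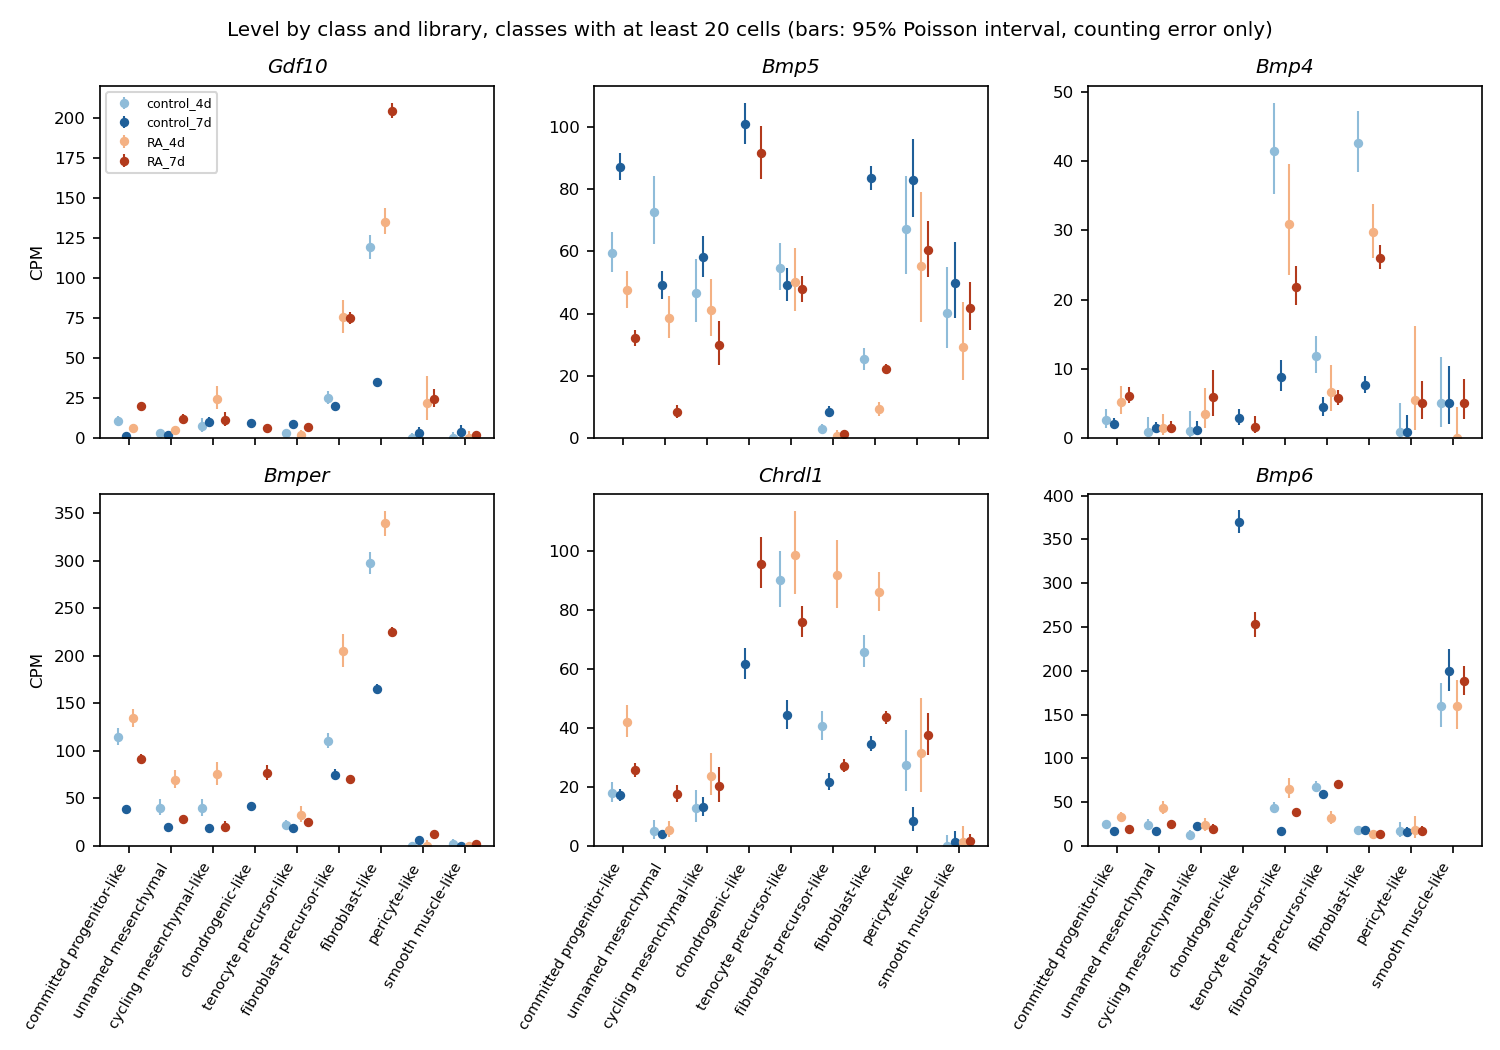
Level of *Gdf10*, *Bmp5*, *Bmp4*, *Bmper*, *Chrdl1* and *Bmp6* in CPM in 7 mesenchymal and 2 mural classes of each library, with bars for the exact 95% Poisson interval and only classes of at least 20 cells. Fibroblast-like cells have the highest *Gdf10* level in all 4 libraries, from 34.8 CPM in control_7d to 205 CPM in RA_7d.

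*Bmper* and *Chrdl1* were higher in RA at both times in the mesenchymal sum, with log2 ratios under 1. *Bmper* had ratios of 1.30 (1.24 to 1.35) at 4 dpf and 1.66 (1.61 to 1.71) at 7 dpf, and *Chrdl1* 1.32 (1.23 to 1.42) and 1.44 (1.37 to 1.52). Over classes the direction was shared, but the classes of a time come from the same pair of libraries and are not replicates. The interval lay above 1 for *Bmper* in 6 of 6 classes at 4 dpf and 5 of 7 at 7 dpf, and for *Chrdl1* in 4 of 5 and 7 of 7, and it lay below 1 in 0 classes for either gene. *Bmp2* and *Bmp6* were lower in the RA sum at both times, with *Bmp2* ratios of 0.655 and 0.717 and *Bmp6* ratios of 0.872 and 0.677. The classes did not share this direction for *Bmp6*, whose interval lay above 1 in 4 of 6 classes and below 1 in 2 at 4 dpf, and above 1 in 3 of 7 and below 1 in 2 at 7 dpf. For *Bmp2* it lay above 1 in 0 of 4 classes and below 1 in 1 at 4 dpf, and above 1 in 1 of 7 and below 1 in 2 at 7 dpf.

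In chondrogenic-like cells at 7 dpf, the ligands *Bmp2*, *Bmp6* and *Gdf5* were lower in RA and the antagonists *Grem1*, *Bmper* and *Chrdl1* higher. *Bmp2* was 52.0 CPM in control and 20.5 CPM in RA (ratio 0.395, 0.315 to 0.491), and *Bmp6* 370 and 253 CPM (ratio 0.683, 0.640 to 0.730). Among the antagonists, *Grem1* was 5.99 and 13.2 CPM (ratio 2.20, 1.51 to 3.22), *Bmper* 42.1 and 77.2 CPM (ratio 1.83, 1.59 to 2.12) and *Chrdl1* 61.6 and 95.6 CPM (ratio 1.55, 1.37 to 1.76). *Nog* had an interval that crossed 1 (0.473 to 1.28), and so did the ligand *Bmp5*, as given above. The direction for *Grem1* differed in committed progenitor-like cells, where it was 6.09 CPM in control and 2.69 CPM in RA. These values rest on 332 control and 179 RA cells of a class that also carried *Sp7*. No comparison was made at 4 dpf, where the class held too few cells. The share of all genes whose interval lay above or below 1 in this class was not computed. These directions are therefore not set against a background. *Bmper* and *Chrdl1* were also higher in RA in other mesenchymal classes, as given above.

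**Figure D4:**
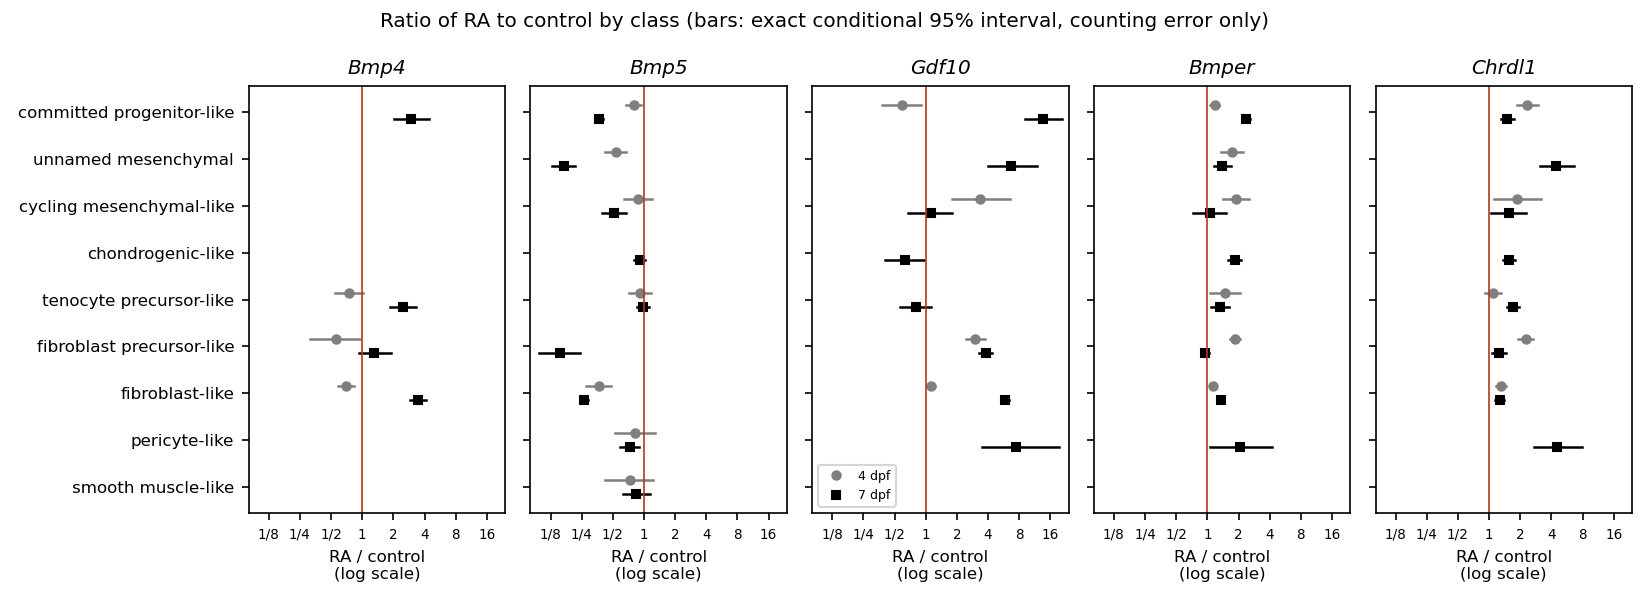
Ratio of RA to control for *Bmp4*, *Bmp5*, *Gdf10*, *Bmper* and *Chrdl1* by class at 4 dpf (circles) and 7 dpf (squares), on a log2 axis with a line at 1 and bars for the exact conditional 95% interval. Squares for *Bmp5* lie left of 1 in fibroblast-like cells (0.265) and near 1 in tenocyte precursor-like cells (0.972).

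In endothelial cells, 3 members had enough UMIs (*Bmp2*, *Bmp4* and *Bmp6*), and 0 of 3 were past 2-fold at 4 dpf, beside 0.988% of genes, and 0 of 3 at 7 dpf, beside 1.7%. *Bmp2* at 7 dpf was 29.3 CPM in control and 17.5 CPM in RA, a ratio of 0.597 (0.513 to 0.694). Arterial endothelial-like cells differed more at 4 dpf. There *Bmp2* was 63.7 CPM in control and 10.6 CPM in RA, from 50 and 7 UMIs (ratio 0.166, 0.0635 to 0.368), and *Bmp6* was 54.8 and 169 CPM (ratio 3.09, 2.15 to 4.50). At 7 dpf the *Bmp6* ratio in these cells was 1.53 (1.18 to 2.00), in the same direction, whereas the *Bmp2* ratio was 1.24 (0.777 to 1.99). These were 33 to 63 cells per library. *Bmp4* in venular endothelial-like cells had a ratio of 0.816 (0.705 to 0.944) at 4 dpf and 1.47 (1.29 to 1.67) at 7 dpf.

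In mural cells 0 of 3 members were past 2-fold at 4 dpf, beside 2.15% of genes, and 2 of 6 at 7 dpf, beside 1.72%. *Bmp2*, *Bmp5* and *Bmp6*, the abundant mural ligands, had ratios between 0.730 and 1.22 at both times. The 2 past 2-fold were *Gdf10*, with 3.40 CPM in control and 13.6 CPM in RA (ratio 4.01, 2.17 to 8.10), and *Chrdl1*, with 5.66 and 20.4 CPM (ratio 3.61, 2.24 to 6.13). In RA_7d, 73 of 78 *Gdf10* UMIs and 112 of 117 *Chrdl1* UMIs came from pericyte-like cells. There *Gdf10* was 3.26 CPM in control_7d and 24.5 CPM in RA_7d, and *Chrdl1* 8.39 and 37.6 CPM. The 2 genes parted when cells called as doublets by Scrublet were left out. *Gdf10* in pericyte-like RA_7d cells then went from 24.5 to 4.64 CPM, from 11 UMIs, against 2.76 CPM from 5 UMIs in control_7d. *Chrdl1* was then 34.2 CPM in RA_7d and 9.39 CPM in control_7d. The mesenchymal marker *Pdgfra* in the pericyte-like RA_7d cells went from 50.7 to 7.17 CPM, and the summed level of 6 mesenchymal markers from 9342 to 5558 CPM.

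Between 4 and 7 dpf, *Bmp4*, *Gdf10* and *Bmper* were lower at the later time in control mesenchymal cells. These comparisons use the same 4 libraries as those of RA with control. In control, 4 of 10 members were past 2-fold, beside 3.43% of genes, and in RA 0 of 9, beside 2.99%, and the difference between these counts was not tested. In control *Bmp4* was lower at 7 dpf with a ratio of 0.206 (0.1801 to 0.235), *Gdf10* with 0.333 (0.307 to 0.361) and *Bmper* with 0.496 (0.476 to 0.516), and *Gdf5* was higher, from 1 UMI to 216 UMIs (ratio 80.5, 14.3 to 3195). In RA the same ratios were 0.934 for *Bmp4*, 1.60 for *Gdf10* and 0.635 for *Bmper*. The *Bmper* log2 ratio in control, -1.003, was at the limit. Class makeup differed between the times, with 10 chondrogenic-like cells in control_4d and 332 in control_7d, and no makeup exchange was computed. With equally weighted classes the control count went from 4 to 0. Endothelial cells had 0 of 3 members past 2-fold in control, beside 1.89%, and 0 of 3 in RA, beside 1.88%. Mural cells had 1 of 4 in control, beside 3.47%, which was *Chrdl1* at 14.4 and 5.66 CPM, and 0 of 5 in RA, beside 4.87%.

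Most other genes of the pathway stayed within 2-fold, as did most of all genes compared. The type II receptor *Bmpr2* was highest in endothelial cells at 335 CPM, where the co-receptor *Eng* had 552 CPM, while the type I receptor *Bmpr1a* had 159 CPM in mural, 136 CPM in mesenchymal and 3.47 CPM in endothelial cells. The target *Id3* was highest in mural cells, at 1269 CPM. At 7 dpf in mesenchymal cells, 0 of 10 receptors and co-receptors and 0 of 7 intracellular transducers were past 2-fold between RA and control. The share over all genes was 2.61% of 17248. Their median log2 ratios were 0.09 and 0.15, and that of all genes was -0.03. Of 12 targets, 0 were higher and 1 was lower, with a median of 0.01. Among the other antagonists *Fst*, which encodes the activin-binding follistatin, was higher in RA, at 70.5 CPM in control and 144 CPM in RA. Of 5 other ligands 1 was higher and 0 lower, with a median of 0.30. The target and the ligand fell outside the naming rule and are named after their values were seen, *Sp7*, an osteoblast transcription factor, with 9.76 CPM in control and 3.61 CPM in RA, and *Bmp3* with 1.53 and 5.89 CPM.

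At 4 dpf in mesenchymal cells, *Bmp3* stood the other way round, at 7.89 CPM in control and 1.31 CPM in RA. It was the only gene of these lists past 2-fold, beside 1.77% of 14213 genes. In endothelial cells 0 genes of these lists were past 2-fold at either time, beside 0.988% of genes at 4 dpf and 1.7% at 7 dpf. The type I receptor *Bmpr1b* in mural cells at 4 dpf, 30.3 CPM in control and 8.81 CPM in RA, was the only gene of these lists past 2-fold in mural cells. The shares over all genes there were 2.15% at 4 dpf and 1.72% at 7 dpf. *Bmpr1b* in mural cells at 7 dpf was 22.4 CPM in control and 14.2 CPM in RA, within 2-fold. The 4 dpf values rest on 98 control and 72 RA mural cells. Over the summed libraries *Bmpr1b* was 28.7 CPM in pericyte-like and 6.90 CPM in smooth muscle-like cells. Pericyte-like cells made up 52.3% of the mural UMIs in control_4d and 39.8% in RA_4d, and no makeup exchange was computed for this gene.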

How the data were processed

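The authors deposited unnormalized UMI counts for each gene in each barcode of 4 libraries, made with Cell Ranger 7.0.1 on mm10 per the labels and methods. From these counts, cells with 4000 to 50000 UMIs, 2000 to 7000 genes and at most 8% mitochondrial UMIs were kept, following the study's filter. Cells were clustered with Seurat 5.3.0 in R 4.3.3 (2000 variable genes, 15 principal components, canonical correlation integration, resolution 1), with 21 BMP pathway genes, 8 of them members, left out of the variable genes. The 33 clusters were named from marker lists, with naming thresholds set after the clusters were seen. Clusters that met no threshold stayed unnamed or out of the 3 lineages. Scrublet (scanpy 1.11.5) called 592 doublets (2.32%), and a call alone removed no cell from the main values. Clusters with more than 25% doublets (47.5% of 276 cells and 88.8% of 178 cells) were left out of the 3 lineages.

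UMIs were summed per lineage or class and library, scaled to CPM and compared as log2 ratios with a pseudocount of 1 CPM for genes whose UMIs in the compared pair of libraries came to at least 50. Past 2-fold means a log2 ratio of at least 1 in size. With 1 library per group there was no test. Intervals are exact 95% intervals (Poisson for levels, Clopper-Pearson for shares, conditional binomial for ratios) and cover counting error only. The floor for a count of 0 is 3 counts.

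All 10 members were named. Genes of the other BMP lists were named where they had at least 20 CPM and were past 2-fold between RA and control, or were the highest of their role, and were otherwise counted. For each member with at least 200 UMIs the 3 genes with the highest correlation were named. Some genes that these rules select, and counts that include them, are not reported here. The members and lists were chosen with earlier results of these data known. Gene positions come from GENCODE and upstream sequences from RefSeq. 12 alternatives were planned and 1, leaving out chondrogenic-like cells, was added after seeing the data. Scripts were tested on simulated data.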

Additional observations from a re-analysis of the deposited data

Results flagged for a closer look

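*Bmp4* in mesenchymal cells stood out because the direction of the difference between RA and control was opposite at the 2 times, with a ratio of 0.700 at 4 dpf and 3.18 at 7 dpf. *Grem1* in mesenchymal cells had the reverse order, with a ratio of 2.21 at 4 dpf and 0.656 at 7 dpf. The classes did not share the 7 dpf direction, since the interval lay above 1 in 2 of 4 and below 1 in 2. Measured levels at 7 dpf were 3.81 CPM in control and 2.50 CPM in RA. Control levels with the RA makeup gave 3.03 CPM, and RA levels with the control makeup 3.63 CPM. *Bmp4* in endothelial cells also changed side, with 0.895 at 4 dpf and 1.41 at 7 dpf. At 4 dpf the interval lay above 1 in 1 of 4 endothelial classes and below 1 in 1. At 7 dpf it lay above 1 in 1 of 4 and below 1 in 0. Venular endothelial-like cells made up 22.3% of the endothelial UMIs in control_7d and 32.7% in RA_7d. Measured endothelial levels were 53.2 CPM in control_7d and 75.1 CPM in RA_7d. RA levels with the control makeup gave 62.96 CPM. Control levels with the RA makeup also lay between the measured levels. With 1 library per group, these differences between times were not tested.

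*Bmp6* had a level of 233 CPM in muscle cells over the 4 libraries, a cell type outside the 3 lineages compared, against 0.852 CPM in blood cells. By library the muscle level was 93.0 (control_4d), 141 (control_7d), 272 (RA_4d) and 532 CPM (RA_7d). Both RA libraries were above both controls, with ratios of 2.93 (2.59 to 3.31) at 4 dpf and 3.78 (3.47 to 4.13) at 7 dpf. The first-ranked class of the 3 lineages had 159 (control_4d), 370 (control_7d), 169 (RA_4d) and 253 CPM (RA_7d). Muscle cells were thus above every ranked class in both RA libraries, and below the first-ranked class in both controls. Muscle cells numbered 116 to 314 per library. The share of all genes past 2-fold in muscle cells was not computed, so these ratios are not set against a background. The muscle cluster had both *Pax7* and *Myog* among its leading genes, and its makeup was not compared between libraries.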

How the results depend on the processing

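No paired analysis was possible because each group has 1 library, and for the same reason no library could be left out of a group. No result reversed under any alternative. At 7 dpf in mesenchymal cells, *Gdf10* kept a log2 ratio of 1.28 to 2.69 and *Bmp5* one of -1.75 to -1.17, past 2-fold in 13 of 13 alternatives, whereas *Bmp4* (0.73 to 1.97) was past 2-fold in 11 of 13 and *Gdf5* (-1.40 to -0.29) in 8 of 11. In mural cells *Gdf10* (0.82 to 2.42) was past 2-fold in 9 of 11 and *Chrdl1* (0.96 to 1.76) in 11 of 12. Both upper ends came from a marker gate on single cells, whose mural cells included 477 from the muscle cluster. Alternatives in which a gene had too few UMIs to compare are left out of its count and range. For mural *Gdf10* these included leaving out doublets, where pericyte-like cells held 11 UMIs in RA_7d and 5 in control_7d. The levels were then 4.64 and 2.76 CPM.

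The count of members past 2-fold changed as follows, and where no reason is given the cause was not tested. For RA against control, the mesenchymal count at 4 dpf went from 0 to 1 with a looser cell filter, and at 7 dpf from 4 to 2 with a pseudocount of 10 CPM and with equally weighted classes. The endothelial count at 7 dpf went from 0 to 1 with the looser filter, at resolution 0.5, with a marker gate on single cells, with genes of at least 10 UMIs, with no UMI filter and with cells thinned to 4000 UMIs. The mural count at 4 dpf went from 0 to 1 with genes of at least 10 UMIs and to 2 with no UMI filter, which only adds genes. At 7 dpf it went from 2 to 4 with the marker gate, to 1 without doublets, and to 0 with a pseudocount of 10 CPM and with thinning. The mural cells of the gate included 829 of the mural clusters, 477 of the muscle cluster and 213 of the mesenchymal clusters. Mural counts under the gate are therefore not of mural cells alone. For 7 against 4 dpf, the mesenchymal count in control went from 4 to 2 with a pseudocount of 10 CPM and without chondrogenic-like cells, an alternative chosen after seeing the data, and to 0 with equal weights. In RA it went from 0 to 1 with the looser filter, the gate and equal weights. The endothelial count in RA went from 0 to 1 with the looser filter, the gate, at least 10 UMIs and no filter, and to 2 at resolution 0.5. The mural count in control went from 1 to 0 with the gate, without doublets, with a pseudocount of 10 CPM, equal weights and thinning, and to 3 with at least 10 UMIs and no filter. In RA it went from 0 to 1 with the looser filter, at least 10 UMIs and no filter, and to 2 with the gate. All 10 shares of cells with a UMI were higher without thinning. Depth limits *Gdf5* and *Nog*, which had 264 and 293 UMIs over the 3 lineages.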

Other observations

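*Bmp4* in muscle cells was also higher in the RA libraries, with 26.9 (control_4d), 24.6 (control_7d), 77.3 (RA_4d) and 142 CPM (RA_7d). The ratio was 2.87 (2.28 to 3.62) at 4 dpf and 5.78 (4.75 to 7.08) at 7 dpf. As for *Bmp6*, these muscle ratios are not set against a share over all genes. *Gdf5* had 0 UMIs in the muscle cells and in the Schwann cells of all 4 libraries.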
